A study of Homo sapiens with 124 samples.

Results

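The regions described here are the pieces of chromosomes 22 and 9 that the Philadelphia translocation moved or left behind in KBM7, a near-haploid human cell line from a chronic myeloid leukaemia. They were chosen by position in the deposited table of 100 kb bins. The chromosome 22 piece joined to chromosome 9 is sequence 9:22 from 133.6 Mb to its end, and the other product is the whole of sequence 22:9. Of 26426 usable bins in the table, 419 belonged to the pieces, with 278 on 9:22 and 141 on 22:9. All cells were from 1 clone, numbered 14, labelled haploid, and carried the bacterial methyltransferase Dam fused to LaminB1, so no group lacked the fusion. The fusion was stabilised by 15 h in 0.5 nM Shield1, and cells were sorted singly from the smallest 2% that carried both Fucci cell cycle markers. Of 124 labelled samples, each a single cell, 118 had a column in the table, and the other 6 were not analysed here. The labels name no cultures, so the spread reported is the spread between cells of 1 clone.

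The nuclear lamina is a protein meshwork under the inner nuclear membrane, and chromatin that touches it tends to be gene-poor and little transcribed. In single-cell DamID, Dam-LaminB1 methylates adenines in GATC motifs near the lamina, and the methylated fragments are cut, amplified and sequenced. The Philadelphia translocation exchanges the ends of the long arms of chromosomes 9 and 22. It joins the 5′ part of BCR, which encodes a signalling protein with a kinase domain, to most of ABL1, which encodes a tyrosine kinase. The fused gene lies on derivative 22 (here 22:9), and its product is the constantly active kinase that drives chronic myeloid leukaemia. The reciprocal product, derivative 9 (here 9:22), carries most of the long arm of chromosome 22. In a haploid cell each derivative is present as a single copy until it is replicated, and a contact then refers to that copy. Whether the pieces had been replicated in these cells was not tested.

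Both pieces are gene-rich by gene order. In the RefSeq gene table of assembly GRCh38.p14, used only for names and order, 346 protein-coding genes followed BCR on chromosome 22. Over the 27.9 Mb of the piece this is 12.4 genes per Mb, against 6.58 per Mb over all sequences of the deposited table. After ABL1 on chromosome 9 there were 145 protein-coding genes, or 18.8 per Mb of the 7.7 Mb assigned to it on 22:9. Of the genes listed for each piece, all 49 of the chromosome 22 piece followed BCR, among them the chromatin remodelling subunit SMARCB1, the tumour suppressor NF2, the myosin heavy chain MYH9 and the synaptic scaffold SHANK3. All 18 listed for the chromosome 22 part of 22:9 preceded BCR, among them the adaptor CRKL. All 24 listed for its chromosome 9 part followed ABL1, among them the nuclear pore gene NUP214, the receptor NOTCH1 and the histone methyltransferase EHMT1. The lists were drawn up by chromosome band, so this order only checks the lists and is no result about the pieces. The deposited table uses hg19 and the gene table does not, so no gene was assigned to a bin. The fused pair was placed only near the junctions.

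A promoter window of each fused gene is shown because Dam can only mark GATC, given here in capitals. Each sequence runs from 250 bases before to 50 bases after an annotated start for the gene, on the plus strand of GRCh38.p14. The windows are chr22:23180259-23180558 for BCR and chr9:130835004-130835303 for ABL1, and any other starts of these genes were not examined.
BCR: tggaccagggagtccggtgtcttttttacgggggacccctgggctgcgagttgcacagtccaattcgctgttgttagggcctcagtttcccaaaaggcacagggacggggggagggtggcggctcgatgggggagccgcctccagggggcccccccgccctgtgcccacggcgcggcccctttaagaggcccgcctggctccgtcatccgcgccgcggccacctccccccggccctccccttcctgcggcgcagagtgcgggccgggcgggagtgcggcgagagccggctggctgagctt
ABL1: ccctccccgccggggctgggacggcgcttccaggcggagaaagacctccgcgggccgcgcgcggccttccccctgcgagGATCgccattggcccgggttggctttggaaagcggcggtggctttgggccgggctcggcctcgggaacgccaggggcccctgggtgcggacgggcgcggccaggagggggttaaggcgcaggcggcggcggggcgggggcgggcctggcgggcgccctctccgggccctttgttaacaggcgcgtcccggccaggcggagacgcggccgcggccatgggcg
The BCR window held no GATC, and the ABL1 window held 1, at position 80 counted from its 5′ end. GATC reads the same on both strands and was present in 41.7% of 35116 promoter windows of the same length. Among promoters of genes after BCR on chromosome 22 the share was 35.4% (117 of 331), and after ABL1 on chromosome 9 it was 37.6% (65 of 173). A window without the motif gives no reads of its own, and a bin of 100 kb is read from its other motifs.

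The values are ratios of observed to expected reads, and a bin was counted as in contact with the lamina in a cell if its ratio was 1 or more. The contact share is the percentage of the usable bins of a region in contact in a cell, and the frequency of a bin is its number of contacts in percent of 118. Recovered whole reads numbered 28372 to 385661 per cell over all usable bins, with a median of 135782.5. The chromosome 22 piece held 0 to 2063 reads per cell, with a median of 141.5, and 22:9 held 0 to 257, with a median of 9. A ratio of 1 stood for 5.74 reads in the median bin of the piece in the median cell, from 1.20 in the shallowest to 16.2 in the deepest, and for under 3 reads in 13 cells. On 22:9 it stood for 5.02 reads in the median cell and for under 3 reads in 19 cells. The 28 cells numbered 96 to 124 had fewer bins without reads than the 90 cells numbered 1 to 94, with medians of 28.7% and 48.4%. Their reads had medians of 161506 and 133746.5, and values are given for each set, since this split by sample number runs through the results. What sets the sets apart was not tested.

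The chromosome 22 piece on 9:22 was rarely at the lamina. Its contact share was 3.49% ± 4.36 per cell (SD, n = 118), with a lowest value of 0%, a median of 1.44% and a highest value of 18.7%, in cell 29. No bin of the piece was in contact in 31 cells. Sequence 22:9 was lower, at 0.715% ± 1.05, with a median of 0%, a highest value of 4.26% in cells 119 and 123, and no contact in 64 cells. The contacts of 22:9 rested on few reads, since 68 of its 119 contacts, or 57.1%, were a single read in the bin, against 3 of 1144 in the chromosome 22 piece. Counting only contacts of at least 3 reads, an alternative added after the data were seen, 22:9 had 0.246% ± 0.625 and the piece 3.41% ± 4.37. Of the 118 cells, 44 had contact in both, 43 only in the chromosome 22 piece, 10 only in 22:9 and 21 in neither.

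The 20 Mb of chromosome 9 next to the junction on 9:22 was in contact far more often. The piece had a share of 3.49% ± 4.36 and the 20 Mb below it 19.5% ± 9.49, a difference of -16.0 percentage points ± 7.85 (SD, n = 118). The piece was lower in 112 cells, equal in 4 and higher in 2. Against all usable bins outside the pieces, at 33.5% ± 5.54, the piece was lower by a mean difference of -30.0 points ± 5.49, in 118 of 118 cells. Sequence 22:9 differed from these bins by -32.8 points ± 5.44, again lower in 118 of 118 cells. Between the derivatives, 22:9 was lower than the chromosome 22 piece by a mean difference of -2.77 points ± 4.22, lower in 71 cells, higher in 26 and equal in 21. Each of these 4 differences had a two-sided sign-flip permutation p of 1e-05, the smallest that 100000 permutations can give, and an adjusted p of 1e-05. These p-values take single cells as units and measure the spread between them only.

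The difference from chromosome 9 turned over with the length compared. The nearest 10 Mb below the junction had a share of 0.659% ± 1.24, and the piece was higher than it by 2.83 points ± 4.03, in 76 cells, with 13 lower and 29 equal (permutation test as before, adjusted p = 1e-05). With 40 Mb, at 25.5% ± 9.81, the difference was -22.0 points. Most contacts of the 20 Mb of chromosome 9 lay beyond the nearest 10 Mb.

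**Figure D1:**
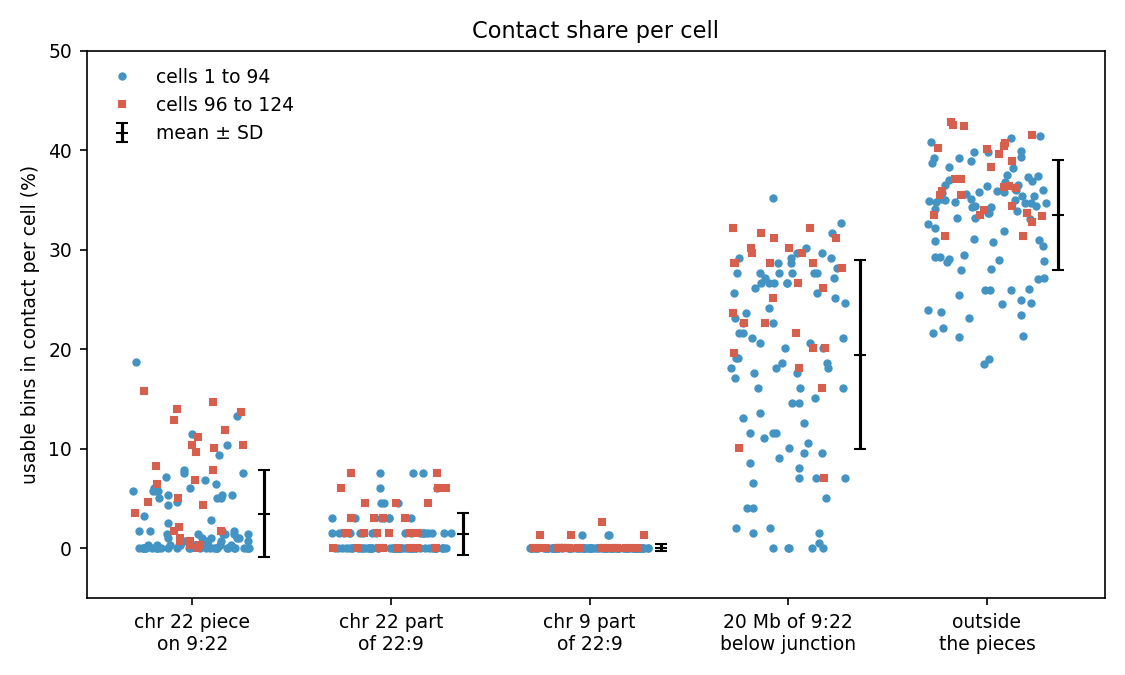
Contact share per cell in percent of usable bins (vertical axis) for the chromosome 22 piece on 9:22, both parts of 22:9, the 20 Mb of 9:22 below the junction and all usable bins outside the pieces. Points are cells, by sample number, and bars are the mean and SD over 118 cells; the piece reaches 18.7% at most, and its mean of 3.49% compares with 19.5% below the junction and 33.5% outside the pieces.

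Cells 96 to 124 contributed more than their number to the contacts of the pieces. They were 23.7% of the cells and held 46.4% of 1144 contacts of the chromosome 22 piece and 42.9% of 119 contacts of 22:9, against 30.5% of the contacts of the 20 Mb below the junction and 26.2% of those outside the pieces. The share of the piece was 2.45% ± 3.52 in cells 1 to 94 (SD, n = 90) and 6.82% ± 5.12 in cells 96 to 124 (SD, n = 28). Of the 31 cells without contact in the piece, 30 were in the set of cells 1 to 94. With every cell thinned to 50000 reads, which left out 9 cells, the means were 2.74% and 7.95%. The difference from the 20 Mb below the junction was -15.3 points for cells 1 to 94 and -18.2 points for cells 96 to 124, and the difference between the derivatives was -1.91 and -5.53 points. All 4 differences kept their sign in both sets.

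Many bins of the chromosome 22 piece were in contact in no cell. Of its 278 bins, 172, or 61.9%, had no contact at a ratio of 1, where 22.3% of all usable bins had none. How many had none depended on the contact value and depth: at a contact value of 0.5 it was 16.5% of the piece and 4.95% of all usable bins, and with 50000 reads per cell it was 38.1% and 14.06%. A frequency of 20% or more was reached by 20 bins, or 7.19%, where 48.9% of all usable bins reached it, and no bin of the piece reached 80%. The share of the piece at 20% or more was 0% at a contact value of 2, 12.6% at 0.5 and 12.2% over cells 96 to 124 alone, with 36.8%, 56.8% and 54.3% of all usable bins. At 0 of 118 cells the exact upper bound is 3.08% (two-sided 95% interval), and it covers the counting of cells only. A frequency of 5% or more, a limit chosen after the data were seen, was reached by 50 bins, or 18.0%, where 61.2% of all usable bins reached it. Of these bins, 47 lay in 5 zones of at least 0.3 Mb, which made up 16.9% of the usable piece and held 89.5% of its contacts. The zones were picked by frequency in these same cells, so a high share of the contacts follows in part from the choice. The matching share over all usable bins is not given.

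The main zone ran from 143.4 to 145.6 Mb of 9:22, which is 9.8 to 12 Mb from the junction. These 2.2 Mb held 57.3% of the contacts of the piece, and per cell 25.2% ± 31.1 of the zone touched the lamina (SD, n = 118), with a median of 6.82%. No contact was seen there in 43 cells, a smaller part was in contact in 46, and more than 50% of it in 29. It held the 4 most frequent bins of the piece. The bin from 144700001 to 144800000 was in contact in 48 cells, or 40.7% (exact Clopper-Pearson 95% interval 31.7 to 50.1%), and its ratio over these cells had a median of 1.86. The neighbouring bins from 144600001 and from 144500001 followed with 37.3% and 35.6%, and the bin from 145100001 also had 35.6%. In this zone the frequencies split by sample number, since 18.9% of the zone was in contact per cell for cells 1 to 94 and 45.5% for cells 96 to 124.

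At a limit of 20% the main zone contained a stretch from 143600001 to 144300000, at 27.8% ± 37.3, and another from 144400001 to 145300000, at 32.2% ± 37.3 (SD, n = 118 each). The shorter of these was fully in contact in 12 cells and without contact in 64. The longer was fully in contact in 13 cells and without contact in 48. The SDs exceeded the means, the medians were 0% for the shorter and 11.1% for the longer, and single cells ranged from 0% to 100%.

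A sharper zone lay nearer the junction, from 138.5 to 139.1 Mb, or 4.9 to 5.5 Mb from it. It held 12.8% of the contacts, with 20.6% ± 28.6 of it in contact per cell and no contact in 66 cells. Its core, from 138700001 to 139000000, was in contact at 29.4% ± 39.0, fully in 19 cells and not at all in 69. The bin from 138700001 to 138800000 reached 32.2% (38 cells, exact 95% interval 23.9 to 41.4%). Here 18.0% of the zone was in contact for cells 1 to 94 and 29.2% for cells 96 to 124.

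The zone nearest the far end, from 157.8 to 159 Mb, held 14.4% of the contacts. It was in contact at 11.7% ± 23.5 per cell, with no contact in 80 cells and over 50% of it in contact in 12. Only the bin from 158200001 to 158300000 reached the limit of 20%, with 25 cells or 21.2%. Of these 25 cells, 11 were among cells 1 to 94 and 14 among cells 96 to 124. The zone as a whole was in contact at 6.48% for cells 1 to 94 and 28.3% for cells 96 to 124. The small zones from 136.4 to 136.8 Mb and from 137.3 to 137.6 Mb had 7.42% ± 22.0 and 6.50% ± 20.1, with contact in 17 and 13 cells. They had 4.72% and 2.59% for cells 1 to 94, against 16.1% and 19.0% for cells 96 to 124. In cells 1 to 94 alone, the bins of the zone from 137.3 Mb were at 2.22 to 3.33%, under the limit of 5%. Between the zones lay long stretches without contact in any cell. The longest were 150400001 to 152200000, 152300001 to 154000000 and 156200001 to 157700000, of 1.8, 1.7 and 1.5 Mb. They were read thinly, with means of 0.309, 0.207 and 0.250 reads per bin and cell, against 4.81 in the main zone.

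**Figure D2:**
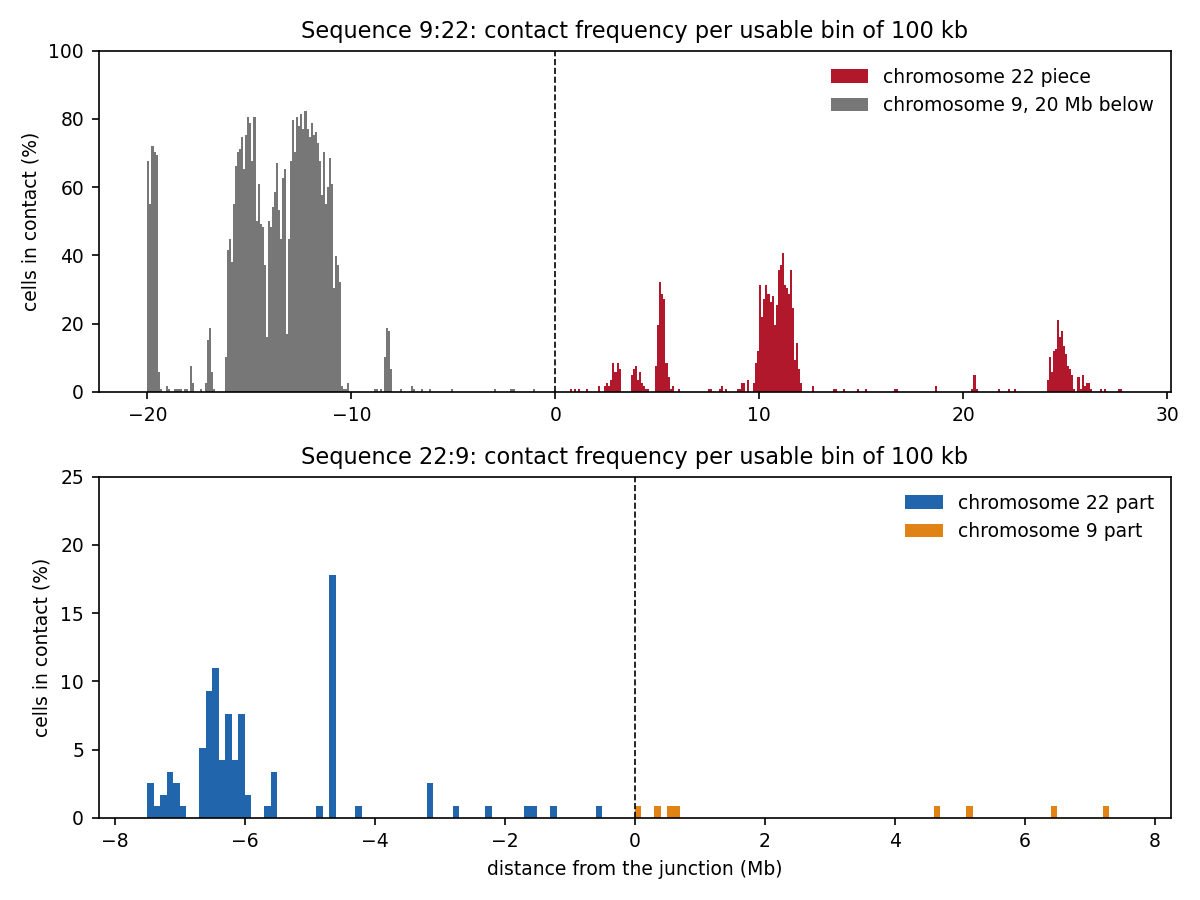
Contact frequency of each usable 100 kb bin in percent of 118 cells (vertical axes, on different scales) against the distance from the junction in Mb, for 9:22 (upper panel) and 22:9 (lower panel). The chromosome 22 piece of 9:22 has separate zones with a highest bin at 40.7%, the chromosome 9 side has bins up to 82.2% beyond 10 Mb, and on 22:9 the highest bin, of single reads, is at 17.8%.

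By distance, the piece was nearly free of contact next to the junction. The nearest 2 Mb had 0.169% ± 1.12, 2 to 5 Mb had 2.77% ± 7.22, 5 to 10 Mb had 3.24% ± 4.32, 10 to 20 Mb had 5.47% ± 6.61 and the rest had 2.24% ± 4.42 (SD, n = 118 each). On the chromosome 9 side the same windows had 0.0446%, 0.0847%, 1.24% and 38.1% ± 18.5, and 40.7% ± 11.1 beyond 20 Mb. The nearest bin at 20% or more lay 5.1 Mb from the junction on the chromosome 22 side and 10.5 Mb from it on the chromosome 9 side. Within 10 to 20 Mb below the junction, the stretch from 120500001 to 123100000 alone was in contact at 65.3% ± 31.7.

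Within single cells the contacts of the piece were short and scattered over a few zones. Each cell had 3.80 ± 3.84 contact runs in the piece, a run being consecutive bins in contact, with a mean length of 0.255 Mb, against 0.483 Mb in the 20 Mb below the junction. Runs of 1 Mb or more held 23.2% of the contacts of the piece and 55.6% of those below the junction, and single bins held 22.6% and 8.33%. The longest run of the piece was in cell 50 and spanned the whole main zone, 2.2 Mb. The median ratio in contact was 1.65 in the piece, 2.13 below the junction and 2.19 outside the pieces. Of the 5 zones, none was in contact in 32 cells, 1 in 28, 2 in 27, 3 in 16, 4 in 10 and all 5 in 5 cells. Of the 32 cells without a zone in contact, 30 were among cells 1 to 94. Cells 96 to 124 held 6 of the 10 cells with 4 zones and 4 of the 5 with all 5.

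Zones of the piece were often in contact in the same cells. The main zone and the one from 138.5 Mb were both in contact in 44 cells and both free in 35, with 31 cells in contact only in the main zone and 8 only in the other. Pearson's r of the shares in contact over 118 cells was 0.586 and Spearman's rho 0.586. The main zone and the zone from 157.8 Mb, which lie 12.2 Mb apart, were both in contact in 34 cells, and only 4 cells had the far zone without the main one (r = 0.625, rho = 0.560). These correlations are descriptions, since the zones share the library and depth of the cell. The counts and correlations take both sets of cells together, and the sets differ in contact of every zone. Values within each set were not computed. The zone on 22:9, from 16.8 to 17.1 Mb, had r = 0.138 with the main zone, and most of its contacts were single reads.

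**Figure D3:**
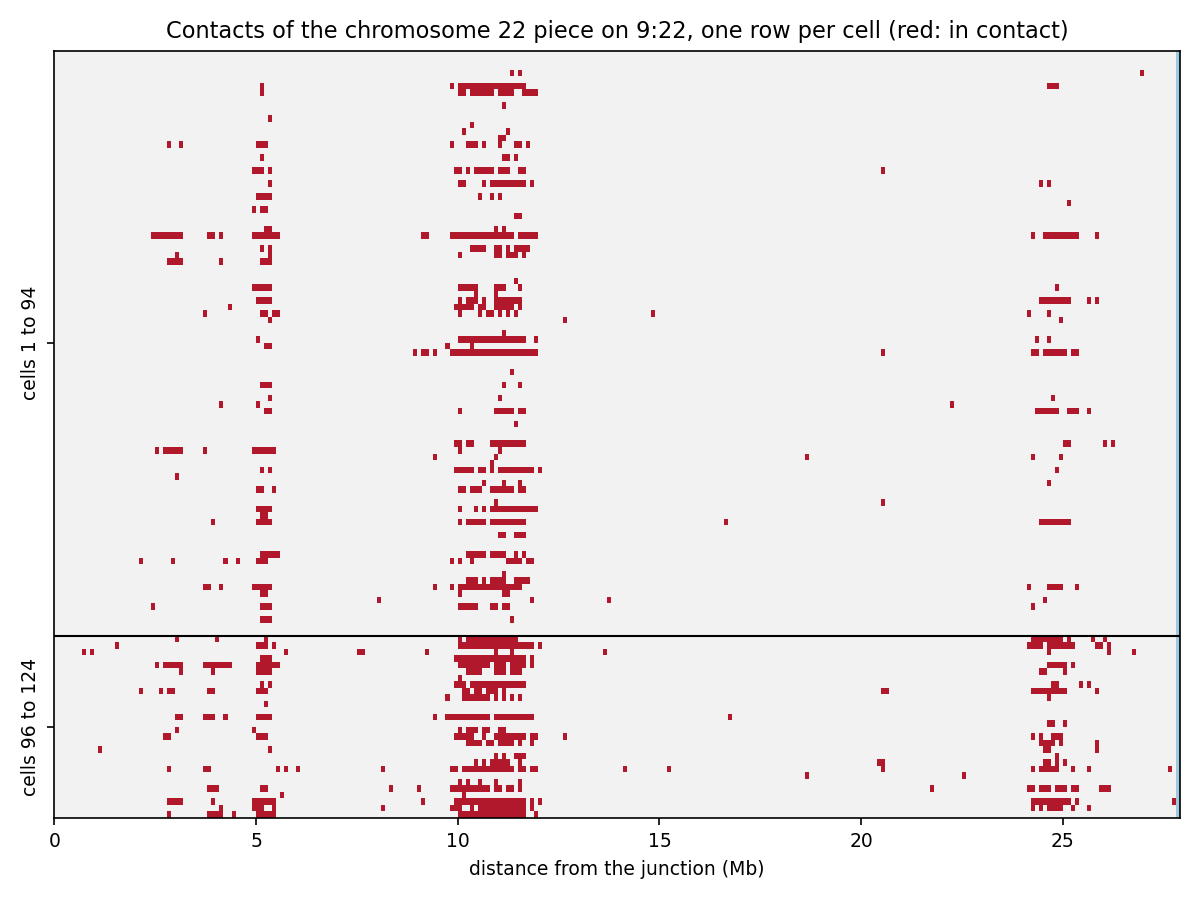
Contacts of the chromosome 22 piece on 9:22, with a row for each of the 118 cells in the order of sample number and the distance from the junction in Mb on the horizontal axis. Red marks bins in contact, grey bins not in contact and blue the bin without a number; the columns of red are the zones, the main one at 9.8 to 12 Mb, and 31 rows hold no red.

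Sequence 22:9 held 312 bins, of which 164 had no number and 7 were at 0 in every cell. The 160 bins before 16 Mb were among the bins not used. The junction was placed at 23.5 Mb, to about a bin, which leaves 66 usable bins for chromosome 22 and 75 for chromosome 9. The bin from 23500001, counted here with chromosome 9, may therefore belong to chromosome 22. Contacts lay mostly on the chromosome 22 side, at 1.43% ± 2.10 per cell (SD, n = 118), with a median of 0% and a highest value of 7.58%. The chromosome 9 side had 0.0904% ± 0.379, or 8 contacts in all, and 111 cells had none. Of 111 contacts on the chromosome 22 side, 77 were of under 3 reads, against 1 of the 8. Contacts of at least 3 reads numbered 34 and 7. With 50000 reads per cell the shares were 1.42% and 0.404%. Of all 141 bins, 107 or 75.9% were in contact in no cell, where 22.3% of all usable bins were, but at a contact value of 0.5 this was 32.6% of 22:9 and 4.95% of all usable bins. Over 118 cells no bin of 22:9 reached a frequency of 20%, where 48.9% of all usable bins did. Over cells 96 to 124 alone 1.42% of its bins did, where 54.3% of all usable bins did. These were the bins from 18800001, at 28.6%, and from 17000001, at 21.4%. Over all cells, 100% and 84.6% of their contacts were of under 3 reads.

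The most frequent contacts of 22:9 were single reads. The bin from 18800001 to 18900000 was in contact in 21 cells, or 17.8% (exact 95% interval 11.4 to 25.9%), with 13 cells among cells 1 to 94 and 8 among cells 96 to 124. All 21 of these contacts were 1 read each, and the bin held 23 reads over all cells. Below it, the stretch from 18000001 to 18600000 had no contact in any cell. Of the 5 most frequent bins, the other 4 lay from 16.9 to 17.5 Mb. There the bin from 17000001 to 17100000 had 11.0% (13 cells), the bin from 16900001 to 17000000 had 9.32% (11 cells), and the bins from 17200001 and 17400001 had 7.63% each. The zone from 16.8 to 17.1 Mb held 37 reads in all, and 26 of its 30 contacts were single reads. In the bin from 16900001, where 10 of 11 contacts were single reads, the median ratio in contact was 3.16. The bins from 17200001 and 17400001 were better read, with 7 and 9 of their 9 contacts at 3 reads or more. With contacts of at least 3 reads, the chromosome 22 side had 0.437% ± 1.14 per cell, 34 contacts in place of 111, and no contact in 99 cells. The frequencies of the bins from 18800001 and 16900001 were then 0%. On the chromosome 9 side the longest stretch without contact in any cell ran from 24200001 to 28100000, 3.9 Mb, at 0.168 reads per bin and cell.

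The bins at the junctions as placed here, near where BCR and ABL1 were cut, were below the contact value in nearly every cell, on few reads. Which of these bins hold parts of BCR or ABL1 was not determined. No read across a junction was analysed. On 9:22, the last bins below the junction, from 133400001 and 133500001, and the opening bins of the chromosome 22 piece, from 133600001 and 133700001, were in contact in 0 of 118 cells (exact upper bound 3.08%, as above). Their highest ratios were 0.409, 0.796, 0.497 and 0.917. They held 27, 17, 23 and 27 reads over all cells. Only 0, 1, 2 and 1 of cells 1 to 94 had any of these reads, against 13, 9, 13 and 14 of cells 96 to 124. In cells 1 to 94 the absence of contact is therefore mostly an absence of reads. On 22:9, where the fused gene lies, the bin from 23500001 to 23600000 was in contact in 1 cell, cell 119, at a ratio of 1.13, which is 0.847% (exact 95% interval 0.0215 to 4.63%). It held 62 reads in 28 cells, 15 of them among cells 1 to 94 and 13 among cells 96 to 124. Its neighbours from 23300001, 23400001 and 23600001 had no contact, and held 16, 24 and 23 reads in 11, 13 and 16 cells. Of these cells, 3, 3 and 4 were among cells 1 to 94. The mean ratio of the bin from 23500001 was 0.0461 for cells 1 to 94 and 0.151 for cells 96 to 124. On the chromosome 22 side of 22:9 the nearest bin at 5% or more lay 4.6 Mb from the junction, and it was the bin from 18800001, whose contacts were all single reads. On its chromosome 9 side no bin reached 5%.

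Cells with more contact in the chromosome 22 piece also had more in the chromosome 9 sequence joined to it. After the contact share of the cell outside 9:22 and 22:9 was removed by regression, the shares of the piece and of the 20 Mb below the junction had Pearson's r = 0.476 and Spearman's rho = 0.476 over 118 cells. It was 0.473 for cells 1 to 94 and 0.464 for cells 96 to 124, and 0.444 once the 2 cells lying farthest from the median were left out. By zone, r with the 20 Mb was 0.459 for the main zone, 0.352 for the zone from 157.8 Mb and 0.344 for the zone from 138.5 Mb. It was lower for the small zones nearer the junction, at 0.250 from 137.3 Mb (rho 0.126) and 0.130 from 136.4 Mb (rho 0.0679). With the usable bins outside 9:22 and 22:9, r of these zones was 0.256 to 0.346. With the far end of chromosome 9, the first 40 Mb of 9:22, r was 0.200 and rho 0.0671. These are descriptions over cells that share library and depth, and the piece itself had r = 0.400 with the reads of the cell.

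With the part of chromosome 22 from which it was parted, the piece had r = 0.148 and rho = 0.111, with the single reads of that part included. There r was -0.0380 for cells 1 to 94 and 0.252 for cells 96 to 124. With the chromosome 9 part of 22:9 r was 0.320, 0.0265 for cells 1 to 94 and 0.498 for cells 96 to 124, where only 8 contacts enter. The gap between these values and that of the adjoining 20 Mb depended on the contact value. At 0.5, r was 0.439 with the adjoining 20 Mb, 0.428 with the chromosome 22 part and 0.436 with the chromosome 9 part of 22:9. The difference between these correlations was not tested. Across the 20 other chromosomes with values, each taken whole, r ranged from -0.197 on chromosome 5 to 0.530 on chromosome 16, with a median of 0.0173. These are not like measures to a block of 20 Mb. The share removed, that outside 9:22 and 22:9, also holds these chromosomes but not the adjoining 20 Mb. Chromosome 16 alone was above the value of the adjoining 20 Mb.

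The same cut was made on the other chromosomes, as a description added after the data were seen. The outermost 27.9 Mb of the long-arm end was set against the 20 Mb next to it on 18 other chromosomes with enough usable bins. The share of the end ranged from 1.45% on chromosome 19 to 56.1% on chromosome 4, with a median of 30.8%, so the translocated end at 3.49% was the second lowest of 19. The end was the lower of the blocks in most cells on 13 of the 18. The correlation of the blocks over cells, computed alike, ranged from 0.204 to 0.686, with a median of 0.529. The value of 0.476 across the junction was 12th from the top among 19.

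**Figure D4:**
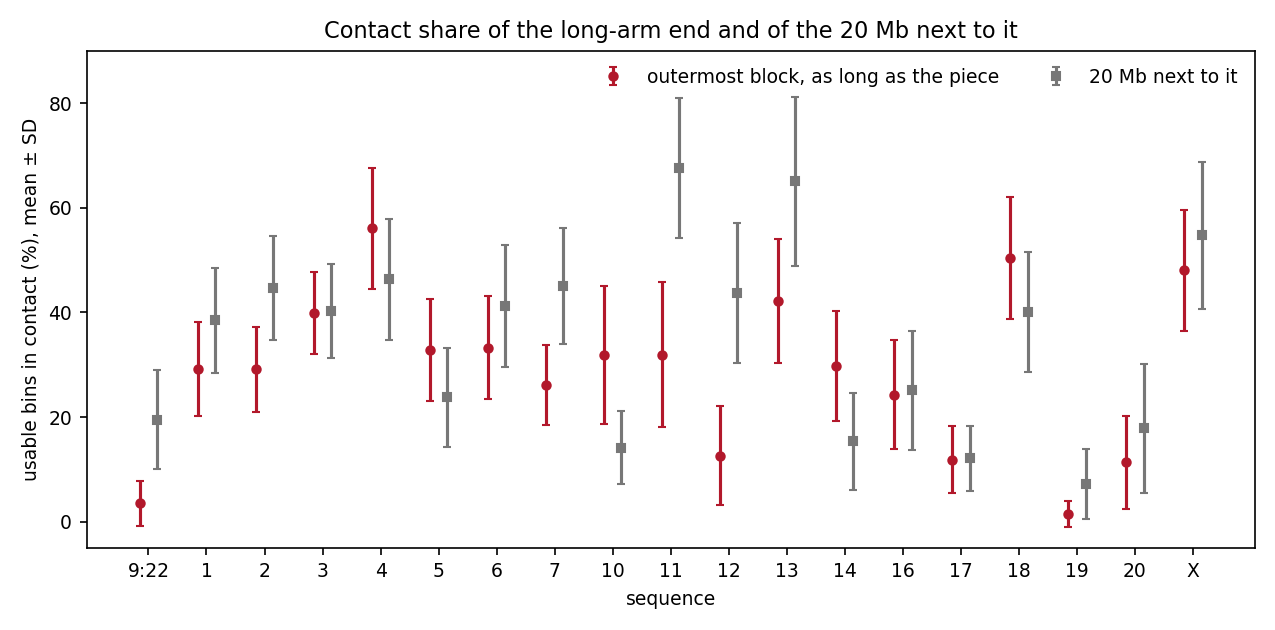
Mean contact share with its SD over 118 cells (vertical axis, percent of usable bins) of the outermost 27.9 Mb of the long-arm end (red) and of the 20 Mb next to it (grey), for 9:22, where the end is the chromosome 22 piece, and for 18 other chromosomes. The end of 9:22, at 3.49%, lies above chromosome 19 at 1.45% and below the other ends.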

How the data were processed

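The authors deposited a single table holding, for every cell and 100 kb bin, the ratio of observed reads to an expected number. The unit follows from the name and values of the table, and the sources used here do not describe the expected number. Per the submitters' processing notes, cutadapt, Bowtie2 2.1.0 and hg19 were used, with roles and settings not given. Unfused Dam was not used here, and open chromatin was not told apart from lamina contact.

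Bins lacking a number in some cell, or at 0 in all cells, were dropped, which left 26426 of 30376. Contact was a ratio of 1 or more. Each ratio divided into whole reads by a step for its bin and its cell, and 100% of 1697706 values above 0 came out whole to a tolerance of 0.02 reads. A bin above 0 in only 1 cell comes out as 1 read by construction, so it is no check of the recovery. The recovered reads gave the depth and the thinning to 50000 reads, and the sources used here do not say how duplicates were handled. Intervals and limits cover counting of cells only.

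The junction on 9:22 follows the rule for the regions, at 133.6 Mb. On 22:9 it was placed at 23.5 Mb from the length of that sequence and the known length of chromosome 9, to about a bin. Differences within a cell were tested by two-sided sign-flip permutation with 100000 draws and Benjamini-Hochberg adjustment over 4 differences. The recovery of reads and the test were tested on simulated data. The labels hold a single group, so no groups of the study were compared. The regions, gene lists and sets of cells were chosen with earlier results of these data known. The text names the fused genes, all stretches at 20% or more, up to 3 longest stretches without contact per piece, up to 5 most frequent bins per piece and the cells with the highest shares. Genes were named by order only, because the gene table is of another build, so the planned values by gene were not computed. Python 3.11.15, numpy 2.4.6 and scipy 1.17.1 were used.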

Additional observations from a re-analysis of the deposited data

How the results depend on the processing

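The 18 results were recomputed with 14 alternatives, each for the results it applied to, which gave 172 values. The 4 tested differences kept their sign and an adjusted p of 2e-05 or less (sign-flip permutation) wherever they were recomputed, with 1 exception. The piece minus chromosome 9 became 2.83 points with the nearest 10 Mb. Some alternatives covered only the correlations, the stretches or a single difference. The levels themselves depended on the contact value. Shares were set against 1 SD between cells, which is as large as most of the means and so shows no stability. At contact values of 0.5 and 2 the piece had 7.24% and 1.13% in place of 3.49%, 22:9 had 1.77% and 0.337% in place of 0.715%, its chromosome 22 part had 2.90% and 0.706%, and its chromosome 9 part had 0.768% and 0.0113%. The 4 stretches at 20% or more had 35.6 to 46.5% at 0.5 and 7.63 to 13.28% at 2. At 0.5, bins of the piece at 20% or more made up 12.6%, bins of the piece and of 22:9 at 0% made up 16.5% and 32.6%, and r with the chromosome 22 and chromosome 9 parts of 22:9 was 0.428 and 0.436. At 2, bins of the piece at 20% or more made up 0%, and r with the chromosome 9 part was 0.0430. With 50000 reads per cell, 38.1% of the bins of the piece were at 0%, the chromosome 9 part had 0.404%, and these values of r were 0.281 and 0.404. In cells 1 to 94 they were -0.0380 and 0.0265, and in cells 96 to 124 they were 0.252 and 0.498. In cells 96 to 124, 12.2% of the bins of the piece were at 20% or more, and the shares were 6.82% for the piece, 1.29% for 22:9, 2.49% for its chromosome 22 part and 0.238% for its chromosome 9 part. Without removal of the contact share of the cell, r with the adjoining 20 Mb was 0.573. As mean ratios in place of shares, the piece had 0.126, 22:9 0.0634, its chromosome 22 part 0.107 and its chromosome 9 part 0.0252. The values of 22:9 and its chromosome 22 part include high ratios on few reads. The bin from 16100001 was above 0 in 1 cell only, at a ratio of 59.5. Its count of 1 read is fixed by the way reads were recovered. The bin from 16400001 reached 55.4 and held 3 reads. The causes were not tested. No paired analysis was possible between groups of samples because the labels hold a single group, while all differences were taken within cells. Of the contacts of 22:9, 65.5% were of under 3 reads. With contacts of at least 3 reads, chosen after seeing the data, 22:9 fell to 0.246%, its chromosome 22 part to 0.437%, and 22:9 minus the piece was -3.16 points.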
